A study of Rattus norvegicus and Mus musculus with 12 samples.

Results

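The insulin-like growth factor (IGF) axis was followed in chondrocytes of rats and mice as 10 genes, the ligands Igf1 and Igf2, the receptors Igf1r and Igf2r, and the binding proteins Igfbp2 to Igfbp7. The genes were found by their symbols, and each of the 10 had 1 row among the 19687 genes of the rat table and 1 among the 28603 genes of the mouse table. All 10 passed the filter on low counts in both species. The libraries came from articular chondrocytes at passage 1, isolated from newborn animals (Sprague–Dawley rats or C57BL/6 mice) and grown in medium with fetal bovine serum. The chondrocytes of the rat control (RC) and mouse control (MC) groups received no cytokine, and those of the rat model (RM) and mouse model (MM) groups were kept for 24 h with IL-1β, a cytokine of joint inflammation, at 20 ng/ml. Each group had 3 libraries. The study describes them as independent samples without saying whether separate animals or cultures gave them, so P values measure the spread between these libraries. The strain labels of the mouse libraries run from C57BL/6 to C57BL/9 from one library to the next, whereas the methods name C57BL/6 for all mice.

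IGF1 and IGF2 are secreted peptides that act through the tyrosine kinase receptor IGF1R. In cartilage, IGF signalling is known for its support of chondrocyte growth and of matrix synthesis. IGF2R, also the mannose 6-phosphate receptor, carries lysosomal enzymes and removes IGF2 from the cell surface. The secreted IGFBPs bind the ligands and can withhold them from the receptor or deliver them to it, and IGFBP7 binds IGFs with lower affinity than the other family members. The binding of each protein was not measured here, only the RNA of its gene.

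The rat libraries held 20169272 to 25903459 counted reads and the mouse libraries 16841580 to 20048322. Counts were compared with edgeR's quasi-likelihood test after scaling by TMM, which sets library scales so that most genes do not shift, and P was adjusted over all genes tested. The TMM factors of MC lay between 1.099 and 1.104 and those of MM between 0.905 and 0.911. A fitted mouse log2 fold change therefore lies 0.28 above that of the deposited FPKM (fragments scaled by gene length and by the total of the library). The corresponding shift in rat was -0.02. Counts of libraries within a group varied more in rat than in mouse, with a biological coefficient of variation of 0.106 against 0.0318. All 10 chondrocyte markers checked, Col2a1 and Acan among them, were detected in both species and all 10 were lower with IL-1β. Their summed FPKM was 5081 to 5716 in RC, 2009 to 2053 in RM, 2404 to 2448 in MC and 210.3 to 223.9 in MM. The macrophage and leukocyte markers, 8 in the list and 7 of them in the rat table, summed to 16.5 to 19.5 FPKM in RC, 30.1 to 32.7 in RM, 5.62 to 6.10 in MC and 32.1 to 33.6 in MM, most of it Cd14 and Cd68. Of this list, 2 of 4 tested were called higher and 1 lower in rat, and 3 of 3 were called higher in mouse. The defining leukocyte gene Ptprc had a mean FPKM of 0.0559 or less in every group, and Itgam was listed at 0 in every mouse library. Csf1r and Tyrobp stood higher, with means of up to 0.669 and 0.795, both in RC. The endothelial markers summed to at most 0.5045 FPKM in every library, with 1 of 1 tested called lower in mouse. The fibroblast and synovium markers summed to 1661 to 1809 FPKM in RC, 1667 to 1698 in RM, 401.5 to 410.2 in MC and 447.8 to 460.1 in MM, but the members moved apart, with 2 of 7 called higher and 1 lower in rat and 3 higher and 4 lower in mouse. The mean FPKM of Prg4, the lubricin gene, was 8.49 in RC, 475.8 in RM, 12.9 in MC and 109.1 in MM, and that of Col3a1 was 916.7, 469.3, 339.2 and 312.8. Osteoblast markers summed to 8.24 to 9.13 FPKM in RC, 2.07 to 2.98 in RM, 16.2 to 17.0 in MC and 1.69 to 1.83 in MM, with 2 of 3 tested called lower in rat and 5 of 5 in mouse. Muscle markers summed to 3.18 to 4.18 FPKM in RC, 2.67 to 3.05 in RM, 3.735 to 4.305 in MC and 0.373 to 0.712 in MM, with 2 of 2 tested called lower in mouse. The adipocyte list summed to at most 6.36 FPKM in RC and to 44.3 to 69.2 in RM, nearly all of it Fabp4 (mean 5.03 and 54.9), and to 12.4 to 13.3 in MC and 5.89 to 6.97 in MM. The part of these cell types in the results for the IGF genes was not tested. In libraries made from whole cultures, fewer cells of a type and less RNA per cell cannot be told apart.

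In rat, 6 of the 10 genes were called lower in the RM group and none higher (adjusted P under 0.05), whereas 16.8% of the 13303 rat genes tested were called lower and 18.3% higher. The 6 genes were Igf2, Igfbp2, Igfbp3, Igfbp4, Igfbp5 and Igfbp6. In mouse, 7 genes were called lower in the MM group and 3 higher, against 37.7% and 37.4% of the 14774 mouse genes tested. Without the TMM step 3699 mouse genes were called higher and 8074 lower, against 5521 and 5564 with it, and among the 10 genes the calls were again 3 and 7. In either direction 35.1% of the rat genes were called. The 3 higher genes were Igf1r, Igf2r and Igfbp7. Since 75% of all mouse genes were called in either direction, a call alone says little there and the sizes carry the comparison. By criteria after those of the study (raw P under 0.05, a change of 0.85 or more up or down, FPKM of 1 or more in a library), where the fold change of the methods was read here as log2, 5 of the 10 were lower in rat and none higher, against 3.9% and 4.64% of rat genes, or 8.54% in all. Igfbp2 was not among the 5, since its log2 fold change in rat was -0.846 before further rounding, just short of 0.85. By those criteria 4 were lower and 3 higher in mouse, against 13% and 12.6% of mouse genes, or 25.6% in all. These mouse counts depend on the scaling. With library size alone Igf1r (0.65) and Igf2r (0.69) fell short of 0.85, and Igfbp4 (-1.12, against -0.84 with TMM) went past it. The FPKM of the control and model libraries did not overlap for 8 of the 10 in rat, 2 higher and 6 lower, whereas 25.5% of rat genes were higher and 22.3% lower without overlap, 47.8% in all. In mouse the groups of all 10 were apart, 3 higher and 7 lower, against 25.4% and 54.9% of mouse genes, 80.3% in all. The median log2 fold change of the 10 genes was -0.87 in rat and -0.68 in mouse, and that of all genes tested was 0.01 and -0.02.

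**Figure D1:**
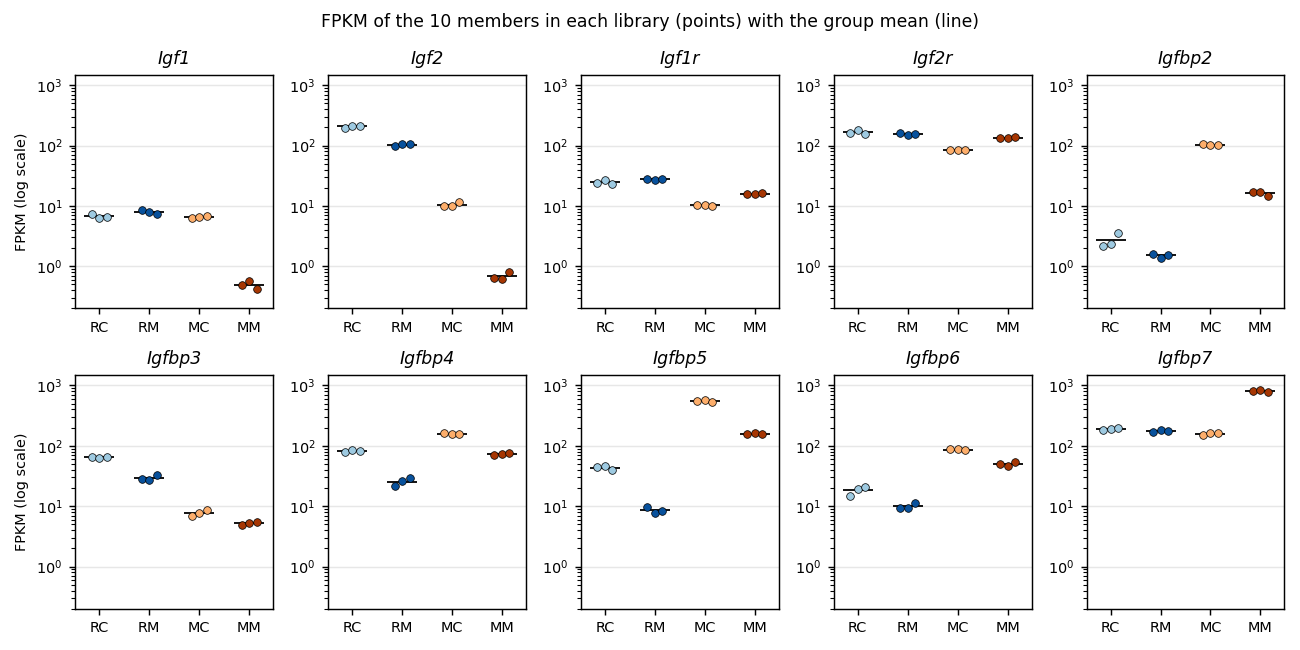
FPKM of each of the 10 genes (log axis) in the RC, RM, MC and MM groups. Points are the 3 libraries of a group and lines are group means. Igf1 lay between 6.35 and 8.45 FPKM in 3 of the groups and between 0.427 and 0.563 in MM, and Igfbp7 lay between 153.9 and 198.2 in 3 of the groups and between 768.0 and 839.6 in MM.

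Igf1 (ENSRNOG00000004517 in rat, ENSMUSG00000020053 in mouse) encodes the ligand that mediates much of the action of growth hormone. In the 3 RC libraries its FPKM was 7.24, 6.42 and 6.57, and in the RM libraries 8.45, 7.98 and 7.48. All RM libraries lay above all RC libraries, but the log2 fold change of 0.22 (standard error, SE, 0.10) did not pass the test (adjusted P = 0.116). In mouse (GRCm38 chromosome 10, 87858265 to 87937042), the FPKM was 6.35, 6.54 and 6.72 in the MC group and 0.484, 0.563 and 0.427 in the MM group. The mouse groups were far apart, with 3363 counts summed in MC against 279 in MM. Igf1 fell by 3.45 on the log2 scale in mouse (SE 0.083, adjusted P = 2.83e-44), which is 10.9-fold. Both control groups stood at a similar FPKM, 6.74 ± 0.437 (SD, n = 3) in RC and 6.54 ± 0.189 in MC, although the rat and mouse gene models differ in length (1925 and 9904 bases).

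Igf2 (ENSRNOG00000020369, ENSMUSG00000048583), the ligand that predominates before birth and an imprinted gene in rodents, fell in both species. In rat, its FPKM was 195.6, 211.8 and 212.8 in the RC group and 98.3, 104.2 and 104.8 in the RM group. Every RM library was below every RC library, and the log2 fold change was -1.03 (SE 0.063, adjusted P = 1.02e-06), a 2.04-fold fall. In mouse (GRCm38 chromosome 7, 142650766 to 142666816), the FPKM was 9.93, 10.1 and 11.4 in the MC group and 0.645, 0.616 and 0.790 in the MM group. These groups did not overlap either, and the log2 fold change was -3.67 (SE 0.092, adjusted P = 2.02e-43), a 12.7-fold fall. The mouse level of Igf2 cannot be set beside the rat level. In GENCODE M21, 3596 of its 5723 exon bases (62.8%) lie also in exons of the gene Gm49394 on the same strand, and reads that fall in both genes may have been left uncounted, which was not tested. Gm49394 was not analysed here. In mouse, Igf2os on the opposite strand shares 98 exon bases with Igf2 and had at most 80 counts in a library.

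Of the summed FPKM of both ligands, Igf2 took 96.8% ± 0.35 (SD, n = 3) in RC and 92.8% ± 0.638 in RM. In the MC and MM groups its share was 61.5% ± 1.27 and 58.1% ± 6.35, with the same limit on its mouse count. The summed ligand FPKM was 202.8 to 219.3 in RC, 106.7 to 112.3 in RM, 16.3 to 18.2 in MC and 1.13 to 1.22 in MM. The ligand sum was lower with IL-1β in every library of both species, in rat through Igf2 and in mouse through both genes.

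Igf1r (ENSRNOG00000014187, ENSMUSG00000005533) encodes the signalling receptor for both ligands. In rat, the FPKM was 24.1, 26.9 and 23.3 in the RC group and 27.6, 27.4 and 28.0 in the RM group. The RM libraries lay just above the RC libraries, and the log2 fold change of 0.14 (SE 0.075) did not pass the test (adjusted P = 0.159). The mouse gene (GRCm38 chromosome 7, 67952827 to 68233668) had an FPKM of 10.4, 10.2 and 9.94 in the MC group and 15.8, 15.9 and 16.4 in the MM group. Igf1r rose in mouse with log2 fold change 0.93 (SE 0.033, adjusted P = 5.49e-35), or 1.91-fold, and 0.65 with library size alone.

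Igf2r (ENSRNOG00000014997, ENSMUSG00000023830) was the more abundant receptor gene by FPKM in every library. In rat, its FPKM was 159.5, 183.1 and 155.6 in the RC group and 163.7, 148.0 and 153.7 in the RM group. These groups overlapped, and the log2 fold change was -0.11 (SE 0.075, adjusted P = 0.263). Mouse Igf2r (GRCm38 chromosome 17, 12682406 to 12769664) stood at 82.8, 83.8 and 83.6 in the MC group and 135.1, 131.6 and 136.2 in the MM group. Its mouse log2 fold change was 0.97 (SE 0.026, adjusted P = 8.54e-42), or 1.95-fold, and 0.69 with library size alone. The antisense gene Airn overlaps Igf2r only outside its exons and had at most 362 counts in a mouse library. The FPKM ratio of Igf2r to Igf1r was 8.20 ± 0.234 (SD, n = 3) in MC and 8.39 ± 0.166 in MM, and the libraries of both groups overlapped. In rat the ratio was 6.70 ± 0.106 in RC and 5.61 ± 0.28 in RM, and no RM library reached the lowest RC library.

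Igfbp5 (ENSRNOG00000017206, ENSMUSG00000026185), a binding protein that attaches to extracellular matrix, had the largest fall of the binding proteins in rat. Its FPKM in rat was 44.7, 45.7 and 40.4 in the RC group and 9.87, 7.79 and 8.45 in the RM group. The groups were separated by a wide gap, and the log2 fold change was -2.34 (SE 0.097, adjusted P = 7.49e-08), a 5.07-fold fall. In mouse (GRCm38 chromosome 1, 72857932 to 72874884), where Igfbp5 was the most abundant of the 10 genes in the MC group, the FPKM was 543.0, 563.6 and 524.8 there and 159.9, 161.4 and 157.2 in the MM group. The mouse log2 fold change was -1.49 (SE 0.026, adjusted P = 1.61e-52), a 2.81-fold fall.

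Igfbp4 (ENSRNOG00000010635, ENSMUSG00000017493) encodes a binding protein known mainly as an inhibitor of IGF action. In rat, its FPKM was 77.7, 85.2 and 83.2 in the RC group and 21.4, 25.8 and 29.6 in the RM group. The spread within the RM group was small beside the gap, and the log2 fold change was -1.69 (SE 0.11, adjusted P = 1.45e-06), a 3.24-fold fall. Mouse Igfbp4 (GRCm38 chromosome 11, 99041244 to 99054392) had an FPKM of 161.3, 158.7 and 155.2 in the MC group and 71.5, 71.9 and 75.1 in the MM group, log2 fold change -0.84 (SE 0.029, adjusted P = 7.31e-36).

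Igfbp7 (ENSRNOG00000002050, ENSMUSG00000036256), a secreted protein of the matrix and of blood vessels, went the other way in mouse. Its FPKM in rat was 180.3, 192.2 and 198.2 in the RC group and 171.3, 181.1 and 176.3 in the RM group. RM2 lay above RC1, so the groups overlapped, and the log2 fold change of -0.13 (SE 0.067) did not pass the test (adjusted P = 0.172). Without RC replicate 1 it did (-0.18, adjusted P = 0.0324). Mouse Igfbp7 (GRCm38 chromosome 5, 77349240 to 77408041) had an FPKM of 153.9, 160.6 and 164.1 in the MC group and 815.5, 839.6 and 768.0 in the MM group. Igfbp7 rose in mouse with log2 fold change 2.62 (SE 0.032, adjusted P = 5.87e-61), or 6.14-fold, and became the most abundant of the 10 genes by FPKM. The gene Polr2b on the opposite strand shares 85 exon bases with Igfbp7 and had at most 1595 counts in a mouse library, where Igfbp7 had 3186 or more.

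The promoters of these 3 genes are shown because the first pair had the largest falls among the rat genes and the third was not called in rat. They are the 250 bases before the annotated start in rat, from RefSeq on GRCr8, and all 10 genes had an entry there, Igf2 with 2 starts, which gives 11 windows. Each is written 5′ to 3′ on the strand of the gene, and capitals mark matches on either strand to 1 of 5 motifs. These were the TATA box with the letters TATAAA, the GC box with the letters GGGCGG, the AP-1 motif with the letters TGANTCA, the C/EBP motif with the letters TTNNGNAA, and the κB motif. The windows lie at chr10:84491221-84491470 (plus strand) for Igfbp4, chr9:81914188-81914437 (minus strand) for Igfbp5 and chr14:31091486-31091735 (plus strand) for Igfbp7.
Igfbp4: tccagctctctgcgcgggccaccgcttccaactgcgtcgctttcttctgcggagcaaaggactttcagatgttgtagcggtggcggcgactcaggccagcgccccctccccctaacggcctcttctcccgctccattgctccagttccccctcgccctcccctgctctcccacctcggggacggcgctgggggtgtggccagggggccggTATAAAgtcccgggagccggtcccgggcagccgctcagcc
Igfbp5: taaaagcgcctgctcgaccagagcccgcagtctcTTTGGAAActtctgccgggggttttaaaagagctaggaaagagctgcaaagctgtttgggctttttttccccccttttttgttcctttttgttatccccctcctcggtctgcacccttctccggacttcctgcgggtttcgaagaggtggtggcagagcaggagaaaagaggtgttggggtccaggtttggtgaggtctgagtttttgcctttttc
Igfbp7: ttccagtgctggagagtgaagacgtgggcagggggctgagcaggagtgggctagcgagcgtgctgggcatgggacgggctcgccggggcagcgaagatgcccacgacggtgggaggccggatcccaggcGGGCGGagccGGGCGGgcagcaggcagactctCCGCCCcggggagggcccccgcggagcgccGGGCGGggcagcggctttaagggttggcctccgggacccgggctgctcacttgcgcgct
The Igfbp4 window held a TATA box that begins 40 bases before the start, the only one in the 11 windows, whereas 12.9% of the 33469 rat windows of this length held one. The Igfbp7 window held 4 GC boxes, 1 of them on the other strand, and 5 of the 11 windows held at least 1, against 30.5% of all windows. The Igfbp5 window held 1 C/EBP match, and 4 of the 11 windows held at least 1, against 37.2% of all. No AP-1 or κB match was in the 11 windows, and 6.34% and 3.54% of all windows held one. Matches to different motifs did not overlap in the 3 printed windows. A match is a string of letters and not a measured site, and no match says only that these letters are not in this window.

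Igfbp3 (ENSRNOG00000061910, ENSMUSG00000020427) encodes the main carrier of IGFs in blood. In rat, its FPKM was 65.1, 63.2 and 65.8 in the RC group and 27.9, 26.7 and 32.5 in the RM group, with no overlap. The log2 fold change was -1.17 (SE 0.084, adjusted P = 3.19e-06), a 2.25-fold fall. Mouse Igfbp3 (GRCm38 chromosome 11, 7206086 to 7213923) had an FPKM of 6.85, 7.76 and 8.52 in the MC group and 4.86, 5.34 and 5.54 in the MM group. The mouse fall was the smallest of the 7, with log2 fold change -0.28 (SE 0.084, adjusted P = 0.00242), and its size depends on the scaling, since library size alone gave -0.56.

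Igfbp6 (ENSRNOG00000010977, ENSMUSG00000023046) encodes a binding protein that prefers IGF2 to IGF1. In rat, its FPKM was 14.8, 19.4 and 20.8 in the RC group and 9.28, 9.17 and 11.5 in the RM group. RC1 was the lowest of its group but above every RM library, and the log2 fold change was -0.89 (SE 0.15, adjusted P = 0.000923). Mouse Igfbp6 (GRCm38 chromosome 15, 102144362 to 102149511) stood at 88.4, 88.3 and 84.1 in the MC group and 50.1, 46.7 and 53.7 in the MM group, log2 fold change -0.52 (SE 0.047, adjusted P = 1.73e-15) and -0.79 with library size alone.

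Igfbp2 (ENSRNOG00000016957, ENSMUSG00000039323), a binding protein of fetal tissues and serum, was the least abundant of the 10 genes in rat. Its FPKM there was 2.20, 2.35 and 3.55 in the RC group and 1.63, 1.39 and 1.53 in the RM group, from 236 and 135 counts over the groups. RC3 stood above both other RC libraries. The log2 fold change was -0.85 (SE 0.24, adjusted P = 0.0185), and the call was lost without RC replicate 3 (-0.60, adjusted P = 0.0811) or RM replicate 2 (-0.79, adjusted P = 0.069). In mouse (GRCm38 chromosome 1, 72824503 to 72852474), next to Igfbp5, the FPKM was 106.6, 102.4 and 100.2 in the MC group and 17.2, 17.1 and 14.4 in the MM group. The mouse log2 fold change was -2.38 (SE 0.048, adjusted P = 1.9e-48), a 5.22-fold fall and the largest of the mouse binding proteins.

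By FPKM, the order of the 10 genes differed between the groups. In RC, Igf2 (206.7), Igfbp7 (190.2) and Igf2r (166.1) led, and neighbours among these 3 overlapped between libraries. In RM, Igfbp7 (176.2) led before Igf2r (155.1) and Igf2 (102.4), each apart from the next. The next in RM, Igfbp3, Igf1r and Igfbp4 (29.0, 27.7 and 25.6), did not differ from each other beyond their spread. Of Igfbp6, Igfbp5 and Igf1 (9.98, 8.70 and 7.97), Igfbp5 overlapped both others. Every RM library had more FPKM of Igfbp6 than any RM library had of Igf1. In MC, Igfbp5 (543.8) led, Igfbp7 and Igfbp4 (159.6 and 158.4) overlapped, and Igf1 (6.54) was last. In MM, Igfbp7 (807.7) led before Igfbp5 (159.5) and Igf2r (134.3), and Igf2 and Igf1 (0.684 and 0.491) were last. The limit on the mouse count of Igf2 holds for its place in the mouse groups as well.

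The make-up of the binding protein RNA does not depend on the scaling of a library, because each share is taken within it. Of the summed FPKM of the 6 IGFBPs, Igfbp7 took 46.9% to 48.1% in the RC libraries and 67.9% to 71.9% in the RM libraries. In mouse its share was 14.5% to 15.8% in MC and 71.5% to 73.5% in MM. Igfbp7 took the largest share in every model library of both species and also in every RC library. Its share in no model library overlapped that in a control library. In rat Igfbp7 itself was not called (log2 fold change -0.13), and its share rose as Igfbp2 to Igfbp6 fell. Igfbp5 took 51.3% ± 0.76 (SD, n = 3) in MC and 14.4% ± 0.261 in MM, and in rat 10.9% ± 0.949 in RC and 3.48% ± 0.535 in RM. Igfbp4 took 20.4% ± 0.398 in RC and 10.2% ± 1.27 in RM, and in mouse 14.7% to 15.2% in MC and 6.30% to 6.99% in MM. The summed FPKM of the 6 was 401.6 ± 14.7 in RC, 251.1 ± 9.24 in RM, 1059 ± 22 in MC and 1112 ± 34.6 in MM. Without Igfbp7, the sum was 211.3 ± 6.01 in RC and 74.8 ± 7.54 in RM, and 899.9 ± 24.6 in MC and 304.0 ± 1.75 in MM. These sums are given as values, with no test.

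**Figure D2:**
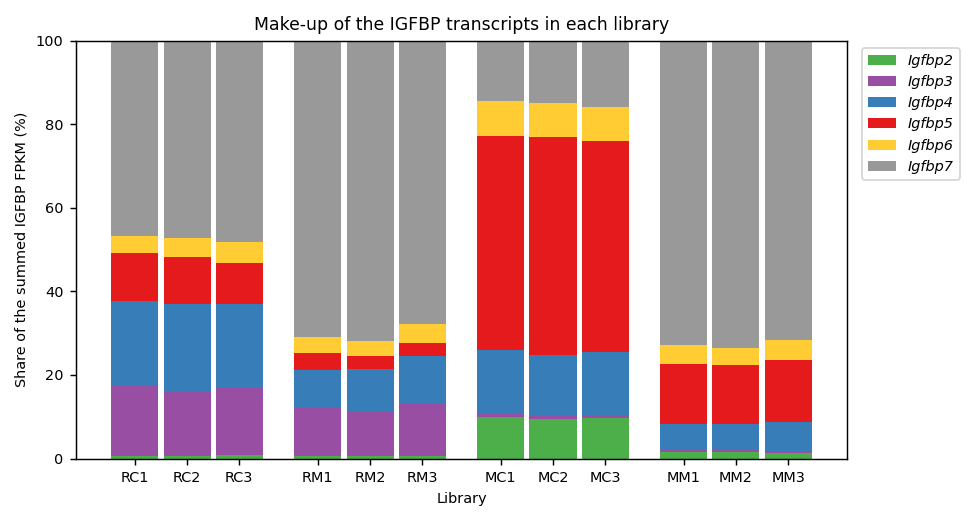
Share of each gene in the summed FPKM of the 6 IGFBPs (per cent) in each library. Igfbp7 took 46.9% to 48.1% in RC, 67.9% to 71.9% in RM, 14.5% to 15.8% in MC and 71.5% to 73.5% in MM.

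The change with IL-1β was compared between the species in 1 fit of all 12 libraries, as the log2 fold change in mouse minus that in rat. All groups shared 1 estimate of a gene's spread, although counts varied more in rat, so an SE can understate the spread in rat. For Igfbp2 the SE was 0.21 in this fit and 0.24 in rat alone. The change differed for all 10 genes (adjusted P under 0.05), 7 with the larger value in mouse and 3 with the larger value in rat. Among the 10912 shared genes tested, 31.4% and 32.3% did so, or 63.8% in all. The ligands and Igfbp2 fell further in mouse. The difference was -3.67 (SE 0.13, adjusted P = 4.28e-13) for Igf1, -2.64 (SE 0.11, adjusted P = 3.31e-12) for Igf2 and -1.55 (SE 0.21, adjusted P = 7.24e-06) for Igfbp2. The receptor genes and Igfbp7 were higher in mouse with IL-1β and not called in rat, with differences of 0.79 for Igf1r (adjusted P = 1.16e-07), 1.08 for Igf2r (adjusted P = 5.47e-09) and 2.74 for Igfbp7 (adjusted P = 1.57e-14). Igfbp3, Igfbp4 and Igfbp5 fell further in rat, with differences of 0.89, 0.85 and 0.85 and adjusted P values of 6.42e-06, 4.04e-06 and 8.84e-07. With library size alone these became 0.60, 0.56 and 0.56, that of Igf1r became 0.49 and that of Igf2r 0.79, all still past the threshold.

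The difference for Igfbp6, 0.37 (SE 0.15, adjusted P = 0.0433), was not stable. It was 0.08 with library size alone (adjusted P = 0.664) and 0.03 by limma on log2(FPKM + 1) (adjusted P = 0.887). It also missed the threshold without RC replicate 2 (0.33), RC replicate 3 (0.27), RM replicate 1 (0.32), RM replicate 2 (0.31), MC replicate 1 (0.38), MC replicate 2 (0.38), MC replicate 3 (0.34), MM replicate 1 (0.38) or MM replicate 3 (0.33), with adjusted P values from 0.0616 to 0.134.

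**Figure D3:**
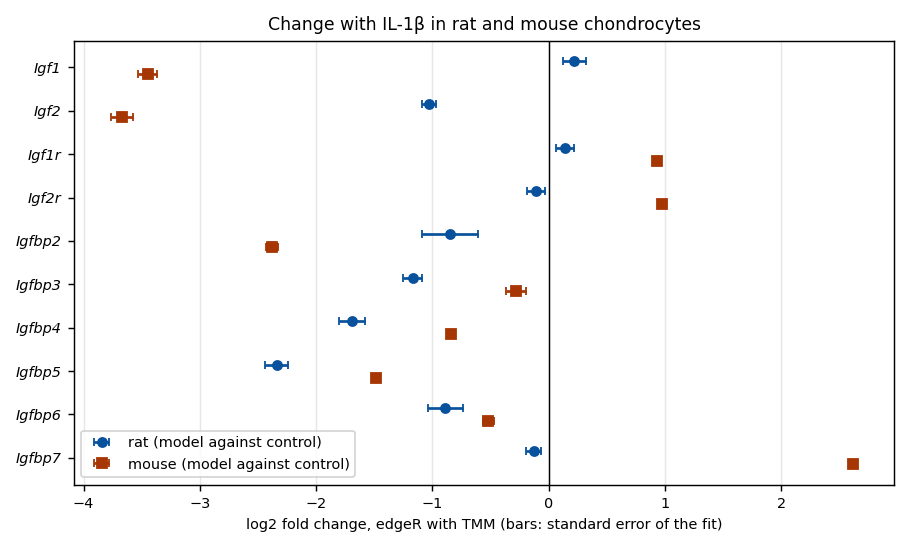
Log2 fold change of the model against the control group for each of the 10 genes, from edgeR with TMM, in rat (circles) and mouse (squares). Bars are standard errors of the fit. Igf1 stood at 0.22 in rat and -3.45 in mouse, Igfbp7 at -0.13 and 2.62, and Igfbp5 at -2.34 and -1.49.

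Other genes of the pathway were taken from a list of 53, of which 45 were tested in rat and 48 in mouse. In rat, 13 were called higher, 9 lower and 23 neither, and in mouse 31 were higher, 14 lower and 3 neither. Of all genes tested, 18.3% were called higher and 16.8% lower in rat, and 37.4% and 37.7% in mouse. The counts in the groups of genes below stand against these shares. The mouse split depends on the scaling, and with library size alone 23 were higher and 19 lower. The split of all 14774 mouse genes tested moved as well, from 5521 higher and 5564 lower with TMM to 3699 and 8074. The median log2 fold change of the list was 0.11 in rat and 0.32 in mouse, beside 0.01 and -0.02 over all genes tested. The mouse medians of the list and of all genes both include the TMM shift of 0.28.

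Proteases that cut the binding proteins, and inhibitors of these proteases, made up 8 of the 53 genes. In rat, 7 were tested and 5 were called higher and none lower. In mouse, 4 were higher and 4 lower, where 75% of all genes were called. Stc1 and Stc2 encode stanniocalcins, secreted proteins known to inhibit the IGFBP protease pappalysin-1. Stc1 rose in both species, from 2.34, 2.16 and 2.10 FPKM in RC to 4.79, 6.72 and 5.25 in RM and from 4.84 ± 0.0985 (SD, n = 3) in MC to 33.6 ± 0.475 in MM. Its log2 fold changes were 1.33 (adjusted P = 4.33e-05) and 3.07 (adjusted P = 3.77e-54). Stc2 stood at 14.7 ± 1.09 in RC and 15.4 ± 0.927 in RM, with a log2 fold change of 0.06 that did not pass the test (adjusted P = 0.635). In mouse it rose from 5.96 ± 0.0759 to 41.9 ± 1.18 FPKM, a log2 fold change of 3.09 (adjusted P = 3.05e-57). Adam12, a metalloprotease gene whose product can cut IGFBPs, rose in rat from 46.7 ± 1.18 to 87.9 ± 2.83 FPKM and fell in mouse from 2.28 ± 0.212 to 0.578 ± 0.0817. The log2 fold changes were 0.90 (adjusted P = 3.53e-06) and -1.70 (adjusted P = 1.32e-22). Adamts1, another metalloprotease gene, moved by 0.80 on the log2 scale in rat (adjusted P = 2.22e-05) and -0.24 in mouse (adjusted P = 9.45e-09).

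Among the 12 genes of receptor-proximal signalling tested in each species, 3 were higher and 3 lower in rat and 10 were higher and 2 lower in mouse. The mouse counts here and for the PI3K group below depend on the scaling, as for the whole list. Shc1 (0.23) and Pik3r2 (0.13), for example, were called higher with TMM. Their mean FPKM was lower in MM (42.93 and 25.83) than in MC (44.25 and 28.53). Irs1, the docking protein that links the receptor to PI3K, fell from 20.3 ± 1.53 FPKM (SD, n = 3) in RC to 11.2 ± 0.371 in RM and from 12.1 ± 0.253 in MC to 4.85 ± 0.196 in MM. Its change on the log2 scale, -0.87 in rat and -1.04 in mouse, did not pass the test of a difference between the species (-0.17, SE 0.089, adjusted P = 0.115). Grb10, an imprinted adaptor gene known to restrain the insulin and IGF1 receptors, also fell in both species. Its log2 fold changes were -0.72 and -0.75, with a difference of -0.03 (SE 0.076, adjusted P = 0.752). Mean FPKM of Grb10 was 218.8 in RC, 134.2 in RM, 103.4 in MC and 50.7 in MM. The mouse changes of Irs1 and Grb10 include the TMM shift of 0.28. By FPKM, which lacks this shift, both genes fell further in mouse than in rat. The lack of a called difference therefore holds for the TMM scaling and does not show equal changes. Grb14, a relative of Grb10, rose in both species, by 1.02 in rat and 2.10 in mouse. Of the 23 genes of PI3K, AKT, mTOR and FOXO, 4 were higher and 6 lower in rat and 16 higher and 5 lower in mouse. Akt2, a kinase of the insulin response, had log2 fold changes of -0.35 and -0.60.

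Of the other ligands, carriers and mRNA-binding proteins, 1 of 3 tested was higher in rat and none lower, and in mouse 1 of 5 was higher and 3 lower. The non-coding gene H19, imprinted together with Igf2 and next to it on mouse chromosome 7, was tested in mouse. It stood at 845.4, 818.5 and 834.1 FPKM in the MC libraries and at 10.5, 10.7 and 11.0 in the MM libraries. The log2 fold change was -6.00 (SE 0.036, adjusted P = 5.41e-78), further down than that of Igf2 in the same libraries. H19 was not analysed in rat.

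**Figure D4:**
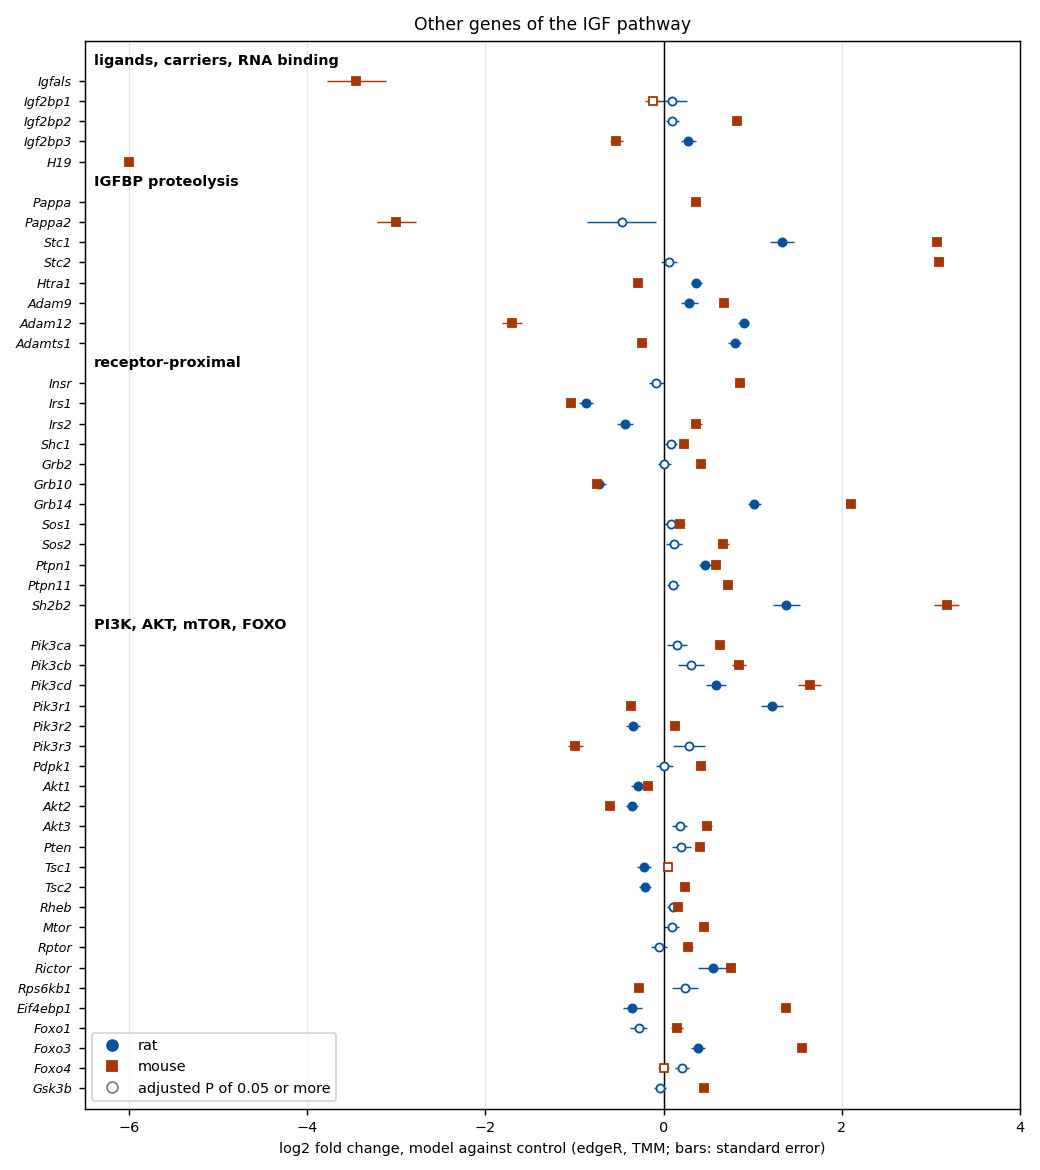
Log2 fold change of the model against the control group for the other genes of the pathway tested, in rat (circles) and mouse (squares), with standard errors of the fit as bars. Open symbols did not pass the test. H19 lay at -6.00 and Stc2 at 3.09 in mouse, and the rat values ran from Irs1 at -0.87 to Sh2b2 at 1.38.

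The shared genes whose log2(FPKM + 1) followed a member most closely over the 12 libraries were Serpinb8, Adgra3 and Sptbn1 for Igf1 (Pearson r of 0.997, 0.996 and 0.994) and Dgat2, Eif1b and Garem2 for Igfbp7 (0.996, 0.995 and 0.995). For Igf2 they were Col6a2, Slc37a3 and Ptk7, each with r of 0.999, and for Igfbp5 they were Mrgprf, Ndufa4 and Gstt1 (0.993, 0.991 and 0.989). The limit on the mouse count of Igf2 holds for its r as well, which joins both species. The 12 libraries fall into 4 groups of 2 species with different gene models, so that r mostly describes the 4 group means. For the other members the highest r was 0.997 for Igf1r with Ehbp1l1, 0.991 for Igf2r with Cfap157, 0.997 for Igfbp2 with Pdzd7, 0.997 for Igfbp3 with Aox1, 0.990 for Igfbp4 with Fam19a5 and 0.996 for Igfbp6 with Dyrk1b.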

How the data were processed

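RNA-seq libraries of rat and mouse chondrocytes were analysed (12 in all, grouped by their titles). For each species the authors deposited raw counts per Ensembl gene and library, and FPKM values. A gene length in whole bases and the column total returned the deposited FPKM from the counts within 0.1% for all 79104 rat and 86999 mouse values with at least 10 counts. The submitters' processing notes name HISAT2, HTSeq 0.11.2, GRCm38 and Rnor_6.0, with no settings, so whether counting used the strand is not given in the sources used here. Mouse gene lengths equalled merged exon lengths in GENCODE M21 (GRCm38) within 1 base for 96.7% of 16304 genes, and mouse coordinates come from it.

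Tests on the counts used edgeR 4.0.16 in R 4.3.3 (filterByExpr, TMM, glmQLFit, glmQLFTest), each species apart, with Benjamini-Hochberg adjustment over all genes tested and a threshold of 0.05. The difference between species was fitted over 10912 genes shared by a unique symbol, each library scaled by its total and the TMM factor of its own species. For 1 gene an exact permutation test of 3 libraries against 3 cannot give a P under 0.1. Standard errors are the log2 fold change divided by the root of F. Library size alone, DESeq2 size factors, DESeq2 1.42.0, limma 3.58.1 on log2(FPKM + 1), no filter, a replicate block and leaving out each library were alternatives. The tests by edgeR, DESeq2 and limma were tested on simulated data. The members, the pathway list and the markers were chosen with earlier results of these data known. Named pathway genes are, per species, the 3 with the smallest adjusted P called in each direction where a group mean reaches 1 FPKM. Genes of like pattern are the 3 with the highest Pearson r.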

Additional observations from a re-analysis of the deposited data

Results flagged for a closer look

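The change with IL-1β differed between mouse and rat, by the test of the difference in 1 fit of the 12 libraries with edgeR (adjusted P under 0.05), for all 10 genes of the axis. The log2 fold change in mouse minus that in rat was -3.67 for Igf1, -2.64 for Igf2, -1.55 for Igfbp2, 0.37 for Igfbp6, 0.79 for Igf1r, 0.85 for Igfbp4, 0.85 for Igfbp5, 0.89 for Igfbp3, 1.08 for Igf2r and 2.74 for Igfbp7. Of the pathway genes named, it was -2.60 for Adam12, -1.04 for Adamts1, -0.25 for Akt2, 1.08 for Grb14, 1.74 for Stc1 and 3.03 for Stc2. Adam12 and Adamts1 were called in opposite directions in the 2 species, and Igf2, Igfbp2 to Igfbp6, Akt2, Grb14 and Stc1 in the same direction. The difference for Igfbp6 (adjusted P = 0.0433) did not hold up, since it missed the threshold with library size alone (0.08, adjusted P = 0.664), by limma (0.03, adjusted P = 0.887) and without any 1 of 9 libraries.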

How the results depend on the processing

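The 3 higher and 7 lower calls among the 10 genes in mouse had the same counts under every alternative run, as did the 0 higher calls in rat. The rat count of lower genes lay between 5 and 7 when 1 library was left out and was 6 otherwise, and that of genes with the larger value in mouse lay between 6 and 7 through Igfbp6. No gene of the axis changed direction under any alternative. Every group has replicates numbered 1 to 3, but no source ties equal numbers to shared animals or days. Over genes, the deviations of same-numbered libraries from their group means had correlations of 0.0241, -0.0977 and 0.0849 for the rat pairs and 0.00124, 0.0149 and 0.00482 for the mouse pairs. Not every library correlated best with its own number. A fit with the replicate block gave 6 lower genes in rat, 3 higher and 7 lower in mouse and 7 and 3 for the difference between species, and it changed no call of the 10 genes.

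With library size alone the median over all mouse genes was -0.295 (log2) in place of -0.02. For the pathway list, 25 of the 45 genes tested had a higher value in mouse and 9 in rat. These counts were 13 and 14 with library size alone and 12 and 15 by limma on log2(FPKM + 1). The limma scale takes the deposited FPKM and shrinks the change of weakly expressed genes. Of all 10912 shared genes tested, 3429 had a higher value in mouse and 3530 in rat. Those became 2191 and 5395 with library size alone and 2214 and 5326 by limma. For mouse Igf1, limma gave -2.34. DESeq2 size factors in edgeR gave 25 and 9 for the pathway list. The count of 222 reads behind Igf2 and 279 behind Igf1 over the MM group, and of 135 behind Igfbp2 over the RM group, limits the precision of these 3.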

Other observations

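The genes of this paragraph were chosen from the pathway list after their values were seen. Insr, the insulin receptor gene and the closest relative of Igf1r, was called higher in mouse and not called in rat, as Igf1r was. Its log2 fold change was -0.08 in rat (standard error 0.086, adjusted P = 0.518) and 0.86 in mouse (standard error 0.044, adjusted P = 1.34e-26), and a difference of 0.94 (adjusted P = 4.7e-07). Eif4ebp1, a translation repressor that mTOR inactivates, fell by 0.35 on the log2 scale in rat (adjusted P = 0.0248) and rose by 1.37 in mouse (adjusted P = 3.51e-42). Foxo3, a transcription factor that AKT holds out of the nucleus, rose in both, by 0.39 (adjusted P = 0.00295) and 1.55 (adjusted P = 7.57e-45). Igfals, which encodes a partner of IGFBP3 in serum, was tested in mouse and fell from 1.34 ± 0.284 FPKM (SD, n = 3) to 0.0994 ± 0.0631 (log2 fold change -3.45, SE 0.33, adjusted P = 8.65e-15).

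Among Igfbp2 to Igfbp6 alone, whose shares leave out Igfbp7, the shares were as follows. Igfbp5 took 60.4% ± 0.698 in MC and 52.5% ± 1.00 in MM, and in rat 20.7% ± 1.54 in RC and 11.7% ± 2.09 in RM. Igfbp6 took 9.66% ± 0.0879 in MC and 16.5% ± 1.07 in MM, and 8.65% ± 1.29 in RC and 13.3% ± 0.41 in RM, a higher share in each model library than in any control library of its species. The FPKM of Igfbp2 to Igfbp6 per FPKM of Igf1 was 28.3 to 33.6 in RC and 8.30 to 11.2 in RM, and 129.8 to 142.8 in MC and 537.6 to 715.7 in MM. This ratio moved in opposite directions in the species, a difference that was not tested. It leaves out Igf2, which took 96.8% of the summed ligand FPKM in RC and 92.8% in RM. In MM the ratio rests on 279 counts of Igf1 over the group.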
